A study of Homo sapiens with 2 samples.

Results

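The histone genes were examined in the human embryonic stem cell line H9, 48 h after treatment with small interfering RNA against HNRNPA1 (siHNRNPA1) or with a control small interfering RNA (sicontrol, called control here). HNRNPA1 encodes hnRNP A1, an RNA-binding protein that regulates splicing. Members were all genes of the deposited RNA-seq table whose name begins with HIST1, HIST2, HIST3 or HIST4 (cluster genes) or with H2AF, H3F or H1F (replacement genes). These were 88 genes of 20263, with 72 cluster genes and 16 replacement genes. The name HIST1H3D stands for 2 gene identifiers, which were kept apart. With 1 usable library on each side, no difference below has a replicate check, no significance test was possible and no p-value is given. Treatment aside, the labels describe both libraries alike, and they name no genetic change in the line. In bulk RNA, fewer cells in a given state and less RNA per cell cannot be told apart.

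Histones are the proteins around which DNA is wound. The core histones H2A, H2B, H3 and H4 form the nucleosome, and the linker histone H1 binds where DNA enters and leaves it. Most of each is made during S phase, when DNA is copied, from intronless genes packed into clusters, whose messenger RNAs end just after a stem-loop bound by the protein SLBP in place of a poly(A) tail. Replacement variants such as H3.3 and H2A.Z come from scattered, usually intron-containing genes, carry a poly(A) tail and are made through the cell cycle. The labels name a kit for mRNA libraries without saying how mRNA was selected, and RNA without a poly(A) tail is captured poorly where selection uses the tail. How much of the cluster mRNA these libraries captured was not tested.

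Estimated counts totalled 28147828 for siHNRNPA1 and 26680342 for the control. HNRNPA1 stood at 179.9 FPKM (fragments counted per unit of transcript length and of library size) in siHNRNPA1 cells and 663 FPKM in control cells, or 27.1% of the control level. All 8 pluripotency markers examined were present, from 18.02 to 1355 FPKM in siHNRNPA1 cells and from 22.6 to 864 FPKM in control cells. Their levels were not alike between the libraries: DPPA4 had 119 and 346 FPKM, PODXL 102 and 312 FPKM and SOX2 58.3 and 126 FPKM in siHNRNPA1 and control cells. POU5F1 had 1355 and 864 FPKM. Of the markers of other cell types, neural, mesodermal and endodermal genes summed to at most 1.69 FPKM per list in either library. Most of the endodermal sum was FOXA2, with 1.52 FPKM and 123 estimated counts in siHNRNPA1 cells and 0 in control cells. By contrast, COL1A1 and COL1A2 of the fibroblast list had 25.002 and 8.38 FPKM in siHNRNPA1 cells and 14.5 and 13.3 FPKM in control cells. The fibroblast markers DCN and POSTN stayed at or below 0.225 FPKM. The part of these marker differences in the histone levels was not tested. A gene was kept for counts of folds when its mean over the libraries was at least 1 FPKM, which left 11921 genes. Folds are log2((siHNRNPA1 + 1)/(control + 1)) of FPKM unless a ratio is named, so those of weakly expressed genes are understated, and the limit for calling a gene higher or lower was 2-fold. Of all genes kept, 45.2% had the higher FPKM in siHNRNPA1 cells, 12.4% were at least 2-fold higher and 21.9% at least 2-fold lower. Their median log2 fold was -0.13. These were 1480 genes higher and 2609 lower, a split that became 1920 and 2231 when the libraries were scaled by the median ratio of genes.

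The element that sets cluster messages apart could be read in the annotated transcripts. It was searched as a perfect stem of 6 base pairs that begins with GG, closed by a loop of 4 bases that begins with TTT. A listed transcript of 31 of the 72 cluster genes held it, against 1 of the 16 replacement genes, H2AFX. Counted by transcript, it was in 44 of 94 cluster transcripts (46.8%) and in 38 of 94896 transcripts of other genes (0.0400%). Many cluster models stop at the stop codon, so that a missing match says only that the annotated model does not hold these letters. The stem-loops are shown as DNA for genes described below, with the stems in capitals, from GENCODE release 29 on GRCh38.
HIST3H2A (chr1:228457369-228457384, minus strand): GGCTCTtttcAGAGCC
HIST1H2BD (chr6:26158587-26158602, plus strand): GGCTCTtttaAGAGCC
HIST1H3H (chr6:27810516-27810531, plus strand): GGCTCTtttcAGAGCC
HIST1H4J (chr6:27824459-27824474, plus strand): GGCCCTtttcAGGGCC
HIST2H4B (chr1:149860769-149860784, minus strand): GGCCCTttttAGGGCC
H2AFX (chr11:119094898-119094913, minus strand): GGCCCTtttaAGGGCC
Only 5 different sequences occurred. The form in HIST3H2A and HIST1H3H was found in 18 genes of the H2A, H2B and H3 classes and that in HIST1H2BD in 5 genes of the H2B and H3 classes. The forms of HIST1H4J (5 genes) and HIST2H4B (3 genes) were found in H4 genes alone, and that of H2AFX in no other member.

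Cluster histone RNA was higher in siHNRNPA1 cells in all 5 classes. The 72 cluster genes summed to 259 FPKM in siHNRNPA1 cells and 66.6 FPKM in control cells, a ratio of 3.88. They made up 0.0497% of all FPKM in siHNRNPA1 cells and 0.0142% in control cells. These measured levels were low, and how much of the cluster mRNA was captured was not tested. Their estimated counts were 6097 in siHNRNPA1 cells and 1425 in control cells. Relative to library totals this is a ratio of 4.06 (95% counting interval 3.83 to 4.30). This interval and those below are exact, treat each estimated count as an independent read, and cover counting error only, not the spread between samples. By class, the FPKM ratio lay between 3.54 for H4 and 5.73 for H1, as the class totals below show.

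Over single genes the direction was largely shared. Of the 67 cluster genes with a value above 0 in either library, 59 had the higher FPKM in siHNRNPA1 cells and 8 in control cells, while 43.8% of all genes above 0 in either library were higher in siHNRNPA1 cells. The other 5 cluster genes, among them the testis genes HIST1H1T, HIST1H2AA and HIST1H2BA, were listed at 0 in both libraries. The mean of at least 1 FPKM was met by 30 cluster genes, of which 25 passed 2-fold upwards and 0 downwards, with a median log2 fold of 1.31. Of these 30, 17 were under 1 FPKM in control cells, none was under it in siHNRNPA1 cells, and those 17 passed through the library in which they were high, so that this count follows in part from the filter. Among the 13 cluster genes with at least 1 FPKM in both libraries, 10 were at least 2-fold higher, where 12.6% of all 10608 such genes were.

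**Figure D1:**
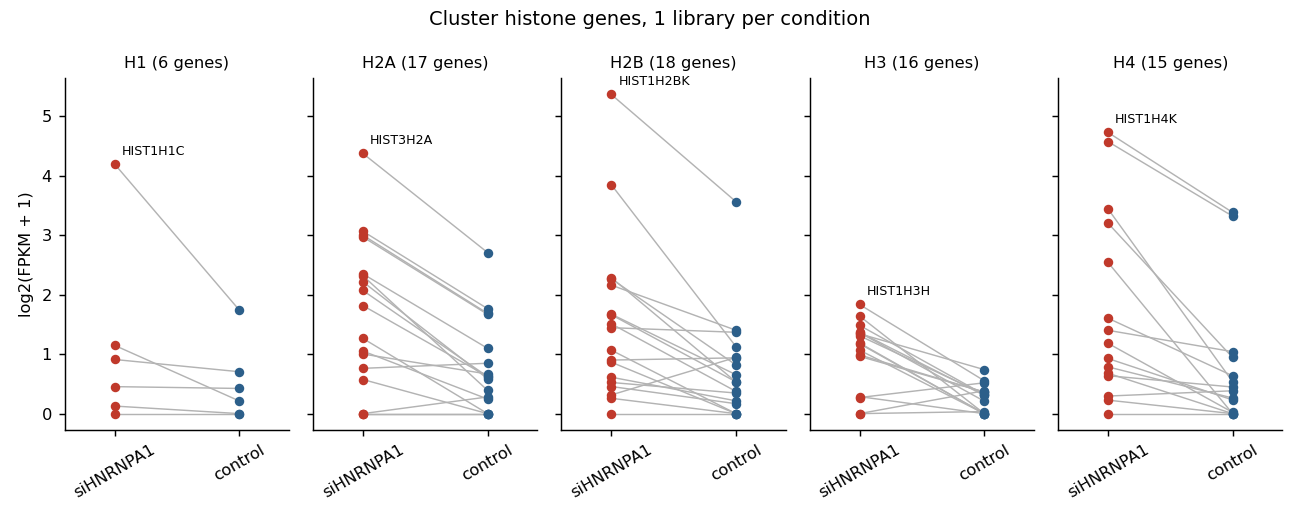
FPKM of each cluster histone gene on a log2(FPKM + 1) axis, with siHNRNPA1 left of control and a line joining the values of a gene, in a panel per class with 1 library per condition. Most lines slope down to the right, as in the 59 of 67 genes that were higher in siHNRNPA1 cells, and the named gene is the most abundant of its class.

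The linker histone H1 cluster genes summed to 19.9 FPKM in siHNRNPA1 cells and 3.47 FPKM in control cells (log2 fold 2.22). This total rested on HIST1H1C, which encodes H1.2 (chromosome 6, 26055787 to 26056428, minus strand, single exon). HIST1H1C had 17.3 FPKM in siHNRNPA1 cells and 2.34 FPKM in control cells, from 371 and 47 estimated counts. Its count ratio relative to library totals was 7.48 (5.51 to 10.4). It gave 87.1% of the H1 cluster FPKM in siHNRNPA1 cells and 67.5% in control cells, and without it the class stood at a log2 fold of 0.74. The others were low: HIST1H1E, the gene of H1.4, had 0.880 and 0.630 FPKM in siHNRNPA1 and control cells, HIST1H1B, that of H1.5, 1.22 and 0.159 FPKM, and HIST1H1D, that of H1.3, 0.370 and 0.341 FPKM.

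The H2A cluster genes summed to 63.1 FPKM in siHNRNPA1 cells and 17.1 FPKM in control cells (log2 fold 1.82), with 1631 and 449 estimated counts and a count ratio of 3.44 (3.10 to 3.83). All 9 genes of this class that met the mean of 1 FPKM were at least 2-fold higher, where 12.4% of all genes kept were. In 5 of the 9 neither library was below 1 FPKM, while the other 4 met the mean through the siHNRNPA1 library. HIST3H2A (chromosome 1, 228456979 to 228457873) led the class with 19.7 FPKM in siHNRNPA1 cells and 5.54 FPKM in control cells, and its count ratio was 3.60 (3.01 to 4.33). HIST2H2AA3 and HIST2H2AA4 had the same translated product. Together they had 13.8 FPKM in siHNRNPA1 cells and 4.396 FPKM in control cells. HIST1H2AC had 7.38 and 2.40 FPKM in siHNRNPA1 and control cells. Its listed transcripts all join 2 exons, and they did not move together. ENST00000314088, annotated as a target of nonsense-mediated decay, had 6.17 FPKM in siHNRNPA1 cells and 0.747 FPKM in control cells, whereas ENST00000602637 had 0.864 and 1.45 FPKM. HIST1H2AM, HIST2H2AC, HIST1H2AE, HIST1H2AJ and HIST1H2AI had log2 folds from 1.19 to 1.93, with at most 14 estimated counts each in the control library.

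The H2B cluster genes summed to 77.4 FPKM in siHNRNPA1 cells and 20.2 FPKM in control cells (log2 fold 1.89). HIST1H2BK (chromosome 6, 27146418 to 27146798, minus strand) was the most abundant cluster gene by FPKM, at 40.3 FPKM in siHNRNPA1 cells and 10.8 FPKM in control cells, from 511 and 129 estimated counts. Its model of 381 bases ends at the stop codon, and the longer HIST3H2A had more estimated counts, 589 and 155. The count ratio of HIST1H2BK was 3.75 (3.09 to 4.59), and the sum of the class without this gene had nearly the log2 fold of the whole, 1.88. HIST1H2BD had 13.4 FPKM in siHNRNPA1 cells and 1.18 FPKM in control cells, with a count ratio of 11.4 (7.77 to 17.5). Most of it came from ENST00000289316, a spliced form that leaves out the stem-loop, at 11.8 FPKM in siHNRNPA1 cells and 0.942 FPKM in control cells. The unspliced form, which carries the stem-loop shown above, had 1.59 and 0.243 FPKM. HIST1H2BJ, HIST1H2BO, HIST1H2BG, HIST1H2BE and HIST1H2BL were at least 2-fold higher as well, at log2 folds from 1.02 to 1.76. HIST1H2BH stood within 2-fold at 3.47 and 1.64 FPKM in siHNRNPA1 and control cells (0.76), and so did HIST1H2BC at 1.72 and 1.58 FPKM, with a count ratio whose interval includes 1 (0.705 to 1.90). HIST1H2BF, at 0.243 FPKM in siHNRNPA1 cells and 0.926 FPKM in control cells, ran the other way, and was named after its values were seen.

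The H3 cluster genes had the lowest summed FPKM, with 18.6 FPKM in siHNRNPA1 cells and 3.37 FPKM in control cells (log2 fold 2.17). Their count ratio was 5.64 (4.601 to 6.978) from 649 and 109 estimated counts, and the H1 cluster genes had fewer, 433 and 74. No single H3 cluster gene had at least 1 FPKM in both libraries. Longest-open-reading-frame translation put 10 HIST1H3 genes into a group with an identical product and HIST2H3A, HIST2H3C and HIST2H3D into another, and these groups are given as sums. The HIST1H3 group, which encodes H3.1, had 13.6 FPKM in siHNRNPA1 cells and 2.52 FPKM in control cells, and the HIST2H3 group, which encodes H3.2, 3.73 and 0.821 FPKM. The highest single value was that of HIST1H3H, at 2.57 FPKM in siHNRNPA1 cells and 0.467 FPKM in control cells. HIST1H3D (ENSG00000197409) had 2.12 FPKM in siHNRNPA1 cells and was listed at 0 in control cells, and it overlaps the other gene of that name. HIST2H3D had 1.80 and 0.249 FPKM and HIST1H3J, within 2-fold, 1.54 and 0.670 FPKM.

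The H4 cluster genes summed to 79.5 FPKM in siHNRNPA1 cells and 22.5 FPKM in control cells (log2 fold 1.78). In 14 of the 15 genes the translated product was identical. Identity of their nucleotide sequences was not measured, and how reads common to several genes were divided is not stated. HIST1H4K and HIST1H4J had 25.5 and 22.8 FPKM in siHNRNPA1 cells and 9.44 and 8.99 FPKM in control cells, with count ratios of 2.73 (2.15 to 3.50) and 2.56 (2.04 to 3.24). The copies HIST2H4A and HIST2H4B together had 18.1 FPKM in siHNRNPA1 cells and 1.38 FPKM in control cells, with a count ratio of 16.04 (12.1 to 21.6). Their leading transcripts in siHNRNPA1 cells were spliced models annotated as targets of nonsense-mediated decay. ENST00000612061 of HIST2H4B had 9.10 FPKM in siHNRNPA1 cells and 0.407 FPKM in control cells, and ENST00000614272 of HIST2H4A 4.46 and 0.0534 FPKM. The unspliced ENST00000578186 of HIST2H4A ran the other way, at 0.00160 and 0.543 FPKM. Models of these genes overlap HIST2H3A and HIST2H3C on the opposite strand, and the sources used here do not say whether counting used strand. Without these copies the H4 class had 61.4 FPKM in siHNRNPA1 cells and 21.1 FPKM in control cells, and a count ratio of 3.20 (2.78 to 3.69) in place of 5.37 (4.75 to 6.08). HIST1H4H had 4.84 FPKM in siHNRNPA1 cells and was listed at 0 in control cells. HIST1H4I had 2.04 and 0.555 FPKM (0.97) and HIST1H4D 1.64 and 1.06 FPKM (0.36).

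By locus, the 56 genes of the HIST1 cluster on chromosome 6 summed to 197 FPKM in siHNRNPA1 cells and 52.4 FPKM in control cells, a ratio of 3.75. The 12 HIST2 genes on chromosome 1 had 41.1 and 8.16 FPKM (5.04), and the 3 HIST3 genes on the same chromosome 20.3 and 5.72 FPKM (3.54). HIST4H4 on chromosome 12, a lone H4 gene, had 0.227 FPKM in siHNRNPA1 cells and 0.305 FPKM in control cells, with 11 and 9 estimated counts.

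Base composition and length differ between the cluster genes and most others, and folds went with base composition across all genes. The leading transcripts of the 30 cluster genes kept had a median GC content of 57.4% and a median length of 506 bases, against 50.6% and 2790 bases over all genes kept. In the fifth of all genes with the highest GC content, which held 11 of the 30, 28.3% passed 2-fold upwards, at a median log2 fold of 0.59. In the fifth with the lowest GC content 1.30% did so, at a median of -0.98. After the median log2 fold of the 100 other genes nearest by FPKM, GC and length was subtracted from each gene, 16 of the 30 cluster genes passed 2-fold upwards and 0 downwards. These were 14 of the 25 that were so before, and HIST1H2BH (1.20) and HIST1H4I (1.13), which were not. Of the 30, 17 met the mean through the siHNRNPA1 library alone, so this count too follows in part from the filter. Among the 13 with at least 1 FPKM in both libraries, those past 2-fold were HIST1H1C (1.80), HIST1H2AC (1.81), HIST1H2BD (2.70) and HIST1H2BH (1.20). By the same measure, 972 of all 11921 genes kept were at least 2-fold higher and 993 at least 2-fold lower. For class totals, the FPKM-weighted mean of these medians over the genes kept was subtracted from the log2 fold of the whole class sum. That mean came from HIST1H1C alone for H1 and from 4 of the 16 genes for H3. The class totals then stood at 1.57 for H1, 1.346 for H2A, 1.42 for H2B, 1.98 for H3 and 1.31 for H4. HIST1H2BK (0.98), HIST3H2A (0.80), HIST1H4K (0.63) and HIST1H4J (0.56) were within 2-fold by that measure, and HIST2H4B (3.20), HIST1H2BD (2.70) and HIST1H1C (1.80) were not. These values depend on the annotated leading transcript. HIST1H2BK and HIST1H4K were matched through models of 381 and 312 bases, with nearest-gene medians of 0.83 and 0.71. HIST2H4B and HIST1H2BH were matched through models of 1694 and 2060 bases, with medians of -0.30 and -0.44. The part of model length in this split was not tested.

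**Figure D2:**
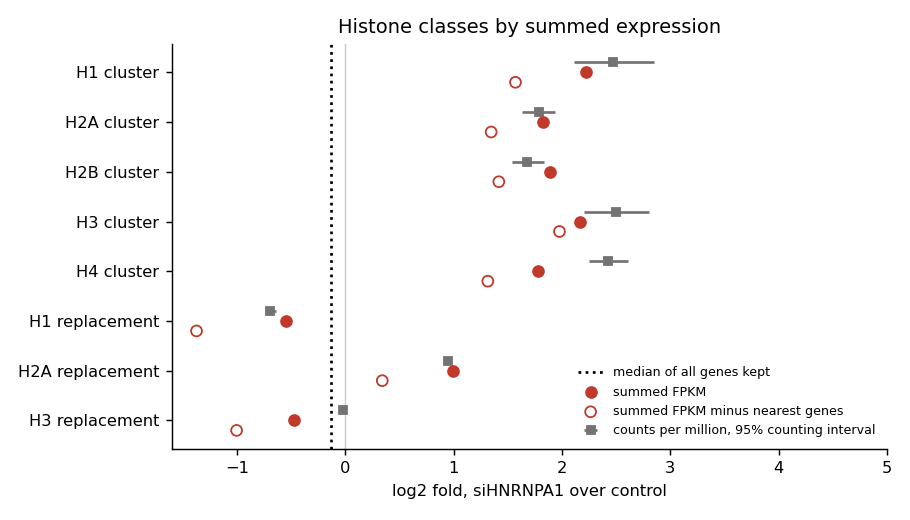
Log2 fold of siHNRNPA1 over control for each histone class, for 1 library each. Filled circles give summed FPKM. Open circles give the same after subtraction of the medians of the 100 genes nearest by FPKM, GC and length. These medians were averaged over the genes kept in each class, weighted by FPKM. Squares give estimated counts relative to library totals with 95% counting intervals, and the dotted line marks the median of all genes kept (-0.13). All 5 cluster classes lie above 1 by each measure, and replacement H1 lies below 0 by each. Replacement H3 lies below 0 in FPKM, but its count ratio of 0.984 has an interval that includes 1 (0.963 to 1.01).

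Cluster transcripts were grouped by where their annotated 3' end lay and by whether they were spliced. Transcripts ending within 15 bases of the stem-loop summed to 24.9 FPKM in siHNRNPA1 cells and 9.32 FPKM in control cells, a ratio of 2.67. These were 4 transcripts, among which HIST1H4J gave 22.8 and 8.99 FPKM. Transcripts that run further past the stem-loop had 91.8 and 21.4 FPKM in siHNRNPA1 and control cells (4.30), and models ending at the stop codon 120 and 30.9 FPKM (3.87). The 14 transcripts with a 3' UTR but no match had 22.1 and 4.99 FPKM (4.43), the highest FPKM ratio of these end groups. Among them ENST00000289316 of HIST1H2BD gave 11.8 and 0.942 FPKM. In counts relative to library totals their ratio was 3.58 (3.04 to 4.22). This was below that of transcripts running past the stem-loop (4.34) and of models ending at the stop codon (4.12). The transcripts ending at the stem-loop thus gave 9.62% of the cluster FPKM in siHNRNPA1 cells and 14.0% in control cells. The 24 spliced transcripts, from 13 genes, had 45.6 FPKM in siHNRNPA1 cells and 5.64 FPKM in control cells, a ratio of 8.09. The 70 transcripts with a single exon had 213 and 61.0 FPKM, a ratio of 3.49. In counts relative to library totals these ratios were 7.78 (6.79 to 8.94) and 3.32 (3.11 to 3.54). Spliced transcripts were 17.6% of the cluster FPKM in siHNRNPA1 cells and 8.47% in control cells. HIST2H4B, HIST1H2BD, HIST2H4A and HIST1H2AC, described above, gave most of them. This division by splicing was added once the values were known.

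**Figure D3:**
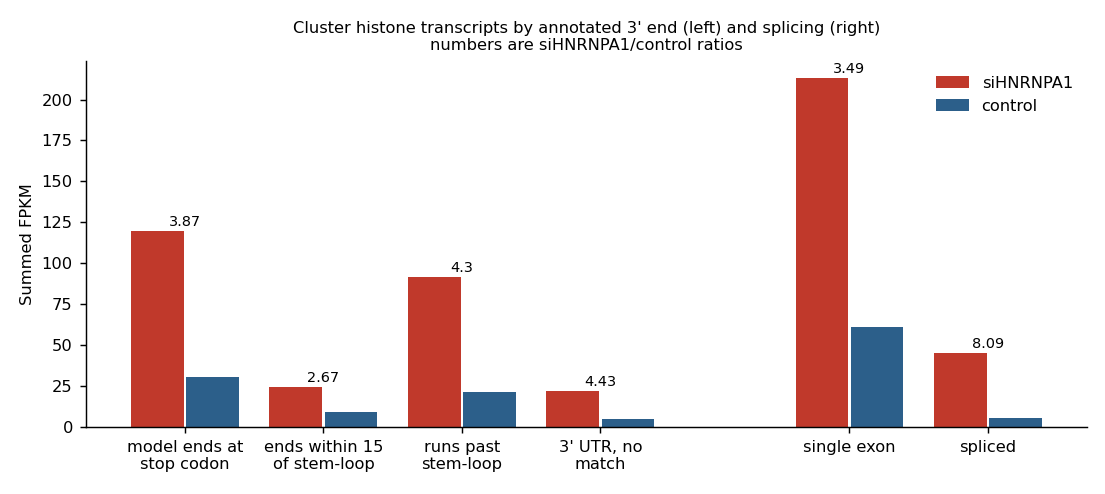
Summed FPKM of cluster histone transcripts in siHNRNPA1 cells (left bar of a pair) and control cells, grouped by where the annotated transcript ends and, at the right, by splicing, with the ratio above each pair. Every group is higher in siHNRNPA1 cells, with ratios from 2.67 for transcripts ending at the stem-loop to 8.09 for spliced transcripts.

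The promoters of the cluster genes carry several known elements, only some of them class-specific, and these are described here as letters. Their part in the higher levels of the cluster classes was not tested. Promoters of 75 of the 88 members were found in RefSeq (GRCh38.p14), and the 250 bases before the start were searched on both strands. The transcribed part of the promoter entry was found in a listed transcript for 26 members. For the others the RefSeq start was not tied to the transcripts measured here. The motif AAACACA of H1 promoters was in all 6 H1 cluster promoters and in no other cluster promoter, against 4.95% of 27305 promoters of all genes. The octamer core ATTTGCA, recognised by OCT1, was in 11 of 14 H2A and 14 of 18 H2B cluster promoters and in 3.70% of all promoters. In the other cluster classes it occurred in 1 of 10 H3 promoters and in none of H1 or H4. Of the replacement promoters, AAACACA was in 1 of 3 of the H1 class and ATTTGCA in 1 of 2 of the H3 class. CCAAT was in every H1, H2A, H2B and H3 cluster promoter searched but in 3 of 13 H4 promoters. It was also in 11 of 14 replacement promoters and in 33.0% of all promoters. TATAAA was in 40 of 61 cluster promoters, 4 of 14 replacement promoters and 11.1% of all promoters. The 150 bases before the RefSeq start of the most abundant cluster gene of each class by FPKM, and of H2AFZ, follow with these motifs in capitals. Most of the H2AFZ window lies inside its listed transcript, which begins at position 99950388.
HIST1H1C (chr6:26056471-26056620, minus strand): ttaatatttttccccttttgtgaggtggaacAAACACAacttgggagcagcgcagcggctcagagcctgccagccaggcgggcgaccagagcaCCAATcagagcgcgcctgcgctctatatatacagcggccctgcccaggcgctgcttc
HIST3H2A (chr1:228457874-228458023, minus strand): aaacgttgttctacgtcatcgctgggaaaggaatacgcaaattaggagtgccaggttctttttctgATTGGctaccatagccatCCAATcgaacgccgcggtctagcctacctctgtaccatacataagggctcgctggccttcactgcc
HIST1H2BK (chr6:27146859-27147008, minus strand): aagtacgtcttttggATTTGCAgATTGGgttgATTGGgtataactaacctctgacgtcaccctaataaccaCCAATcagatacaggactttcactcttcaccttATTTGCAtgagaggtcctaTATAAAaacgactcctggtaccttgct
HIST1H3H (chr6:27809901-27810050, plus strand): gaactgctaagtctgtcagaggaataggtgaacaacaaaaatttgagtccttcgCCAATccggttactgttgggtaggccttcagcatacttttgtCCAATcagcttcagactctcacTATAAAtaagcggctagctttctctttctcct
HIST1H4K (chr6:27831561-27831710, minus strand): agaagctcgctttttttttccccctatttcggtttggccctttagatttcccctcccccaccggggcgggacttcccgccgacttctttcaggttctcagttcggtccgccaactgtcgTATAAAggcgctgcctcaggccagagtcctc
H2AFZ (chr4:99950276-99950425, minus strand): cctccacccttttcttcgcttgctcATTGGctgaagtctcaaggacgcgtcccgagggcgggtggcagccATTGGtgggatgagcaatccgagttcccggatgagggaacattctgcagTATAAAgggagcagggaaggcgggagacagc
HIST1H2BK, the most abundant cluster gene by FPKM, holds the octamer core, CCAAT and TATAAA in this window. HIST1H4K holds TATAAA alone of these motifs. A match is a description of the letters and not evidence of binding.

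The replacement genes gave most histone FPKM in both libraries and did not share a direction. How much of the cluster mRNA was captured was not tested, so this share is one of measured RNA. Together they summed to 1368 FPKM in siHNRNPA1 cells and 1095 FPKM in control cells, a ratio of 1.25. Of the 16 genes, 10 met the mean of 1 FPKM, and all of these had at least 1 FPKM in both libraries. H2AFX and H2AFJ were at least 2-fold higher, H1F0 was at least 2-fold lower, and 7 were within 2-fold. Of all genes with at least 1 FPKM in both libraries, 12.6% were higher and 18.5% lower by that limit, so these few calls do not set the replacement genes apart. Of the rest, the oocyte and testis genes H1FOO and H1FNT were listed at 0 in both libraries, and H2AFB1, H2AFB2, H2AFB3 and H3F3C stayed at or below 0.320 FPKM.

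**Figure D4:**
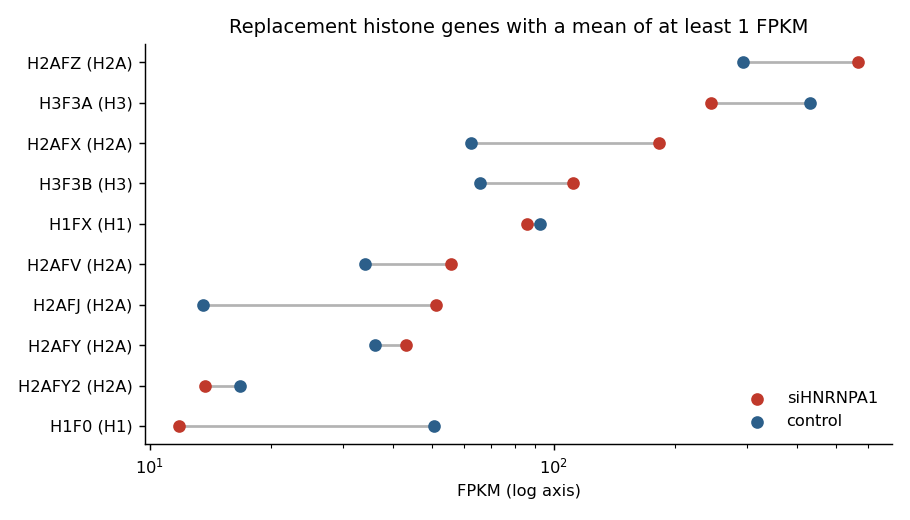
FPKM on a log axis of the 10 replacement histone genes with a mean of at least 1 FPKM, in the siHNRNPA1 and the control library (1 each), joined by a line per gene. H2AFX, H2AFJ, H2AFZ, H2AFV, H3F3B and H2AFY are higher in siHNRNPA1 cells, and H1F0, H3F3A, H2AFY2 and H1FX lower.

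Among the H1 replacement genes H1F0, which encodes the linker histone H1.0 that accumulates in differentiated and resting cells (chromosome 22, 37805093 to 37807436), had 11.8 FPKM in siHNRNPA1 cells and 50.5 FPKM in control cells. Its estimated counts were 922 and 3685, a ratio relative to library totals of 0.237 (0.220 to 0.255), and its log2 fold was -2.01. H1FX, which encodes H1.10 (chromosome 3, 129314771 to 129316277), had 85.8 FPKM in siHNRNPA1 cells and 92.3 FPKM in control cells (-0.10). H1FX therefore made up 87.9% of the H1 replacement FPKM in siHNRNPA1 cells and 64.6% in control cells. HIST1H1C and H1F0 thus lay on opposite sides within the linker class. Replacement genes gave 83.1% of all H1 FPKM in siHNRNPA1 cells and 97.6% in control cells. In estimated counts these shares were 92.4% (91.6% to 93.0%) and 99.1% (98.9% to 99.3%).

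Among the H2A replacement genes all but H2AFY2 were higher in siHNRNPA1 cells, and the class summed to 914 FPKM in siHNRNPA1 cells and 457 FPKM in control cells (log2 fold 1.00). H2AFZ, which encodes H2A.Z.1, a variant placed around transcription starts (chromosome 4, 99948088 to 99950388), was the most abundant histone gene at 568 FPKM in siHNRNPA1 cells and 294 FPKM in control cells (0.95). Its count ratio was 1.96 (1.91 to 2.01). H2AFV, which encodes the other H2A.Z protein, had 55.6 and 34.1 FPKM (0.69), an FPKM ratio of 1.63. Its count ratio was lower, at 1.26 (1.18 to 1.34). H2AFX, which encodes the variant phosphorylated at DNA breaks (chromosome 11, 119093854 to 119095467), had 182 FPKM in siHNRNPA1 cells and 62.5 FPKM in control cells (1.53), with a count ratio of 2.99 (2.87 to 3.12). H2AFX was the only replacement gene with the stem-loop, and both of its listed transcripts run past it, by 1044 bases in ENST00000530167 and 821 bases in the spliced ENST00000375167. The first had 160 FPKM in siHNRNPA1 cells and 50.5 FPKM in control cells, and the second 21.9 and 12.0 FPKM. H2AFJ (chromosome 12, 14774383 to 14778002) had 51.0 FPKM in siHNRNPA1 cells and 13.6 FPKM in control cells (1.84). Its count ratio was 2.85 (2.53 to 3.22). Counts of its long spliced transcript ENST00000501744, 25 in siHNRNPA1 cells and 124 in control cells, ran the other way. The macroH2A genes H2AFY and H2AFY2, whose products carry a large extra domain, had 43.1 and 13.7 FPKM in siHNRNPA1 cells and 36.1 and 16.8 FPKM in control cells (0.25 and -0.27).

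The genes of the H3 replacement variant H3.3, H3F3A and H3F3B, are known to encode identical proteins, and they lay on opposite sides. H3F3A (chromosome 1, 226061851 to 226072001) had 245 FPKM in siHNRNPA1 cells and 430 FPKM in control cells (-0.81), with a count ratio of 0.654 (0.636 to 0.673). H3F3B (chromosome 17, 75776434 to 75785486) had 112 FPKM in siHNRNPA1 cells and 65.5 FPKM in control cells (0.76), with a count ratio of 1.84 (1.78 to 1.91). H3F3A gave 68.6% of the H3 replacement FPKM in siHNRNPA1 cells and 86.8% in control cells. The H3 replacement genes summed to 357 FPKM in siHNRNPA1 cells and 495 FPKM in control cells (-0.47), but in counts relative to library totals their ratio was 0.984 (0.963 to 1.01), so that FPKM and counts do not give the same size. Without H3F3A the class stood at a log2 fold of 0.76. They made up 95.03% of all H3 FPKM in siHNRNPA1 cells and 99.3% in control cells, and the corresponding shares for H2A were 93.5% and 96.4%.

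The main transcripts of H3F3A ran in opposite directions. ENST00000366816, of 799 bases and 5 exons, had 109 FPKM in siHNRNPA1 cells and 348 FPKM in control cells. ENST00000366815, of 1088 bases and 4 exons, which starts further downstream and has a longer 3' end, had 131 FPKM in siHNRNPA1 cells and 79.4 FPKM in control cells. The share of ENST00000366816 in the gene's FPKM was 44.7% in siHNRNPA1 cells and 81.0% in control cells, and that of ENST00000366815 53.5% and 18.5%. The transcripts overlap over most of their length, and the division of reads between them is an estimate of the authors' program.

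Other replacement genes had smaller differences between transcripts. In H3F3B the main transcript ENST00000254810 gave 78.4% of FPKM in siHNRNPA1 cells and 71.4% in control cells. In H2AFV the long transcript ENST00000222690 had 8.55 FPKM in siHNRNPA1 cells and 9.33 FPKM in control cells, while the short ENST00000308153 had 31.5 and 15.98 FPKM. The share of the long transcript was 15.4% in siHNRNPA1 cells and 27.3% in control cells. In H2AFY a pair of exons on chromosome 5, at 135350823 to 135350913 (91 bases) and 135352946 to 135353045 (100 bases), never occur in the same listed transcript. Of the FPKM of transcripts with either exon, the 91-base exon was in 15.5% in siHNRNPA1 cells and 12.3% in control cells, a difference of few percentage points with no replicate to set it against.

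**Figure D5:**
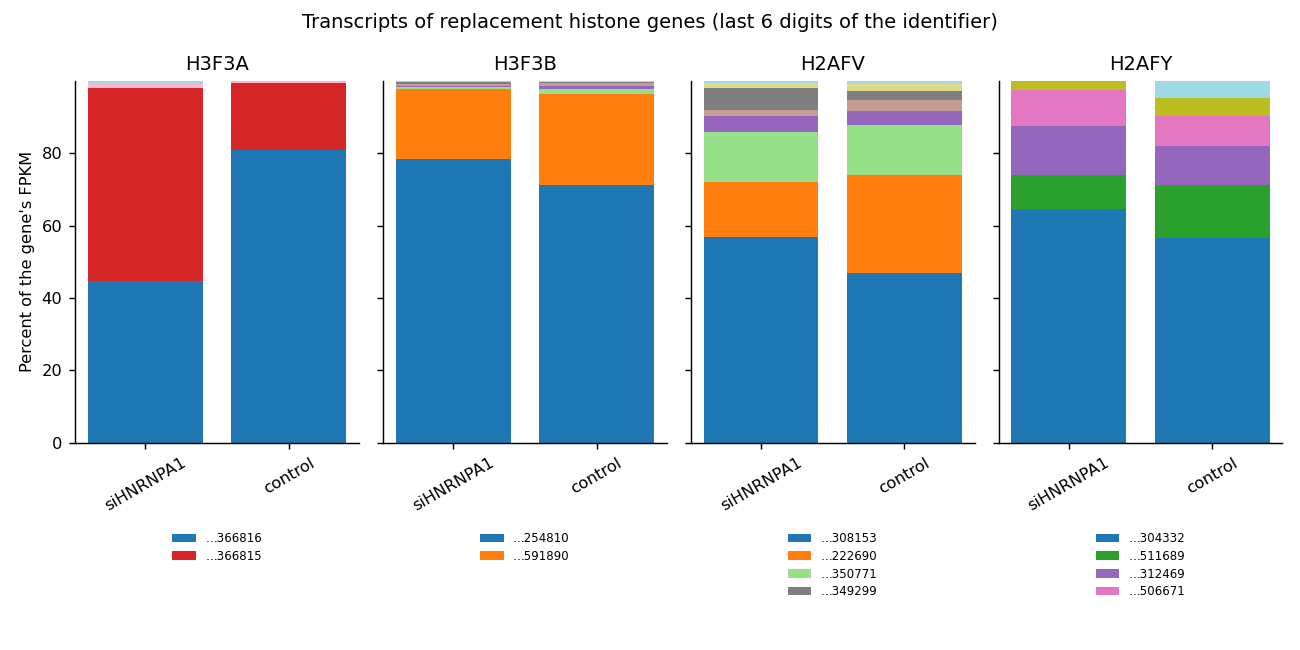
Percent of each gene's FPKM given by its transcripts in siHNRNPA1 cells (left bar) and control cells for H3F3A, H3F3B, H2AFV and H2AFY, with transcripts of at least 5% in either library named in the legend. The H3F3A transcript ENST00000366816 gives 44.7% in siHNRNPA1 cells and 81.0% in control cells, while the other genes shift less.

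The subtraction of the nearest genes changed the picture for several replacement genes. H1F0 stood further down, at -2.36, and H3F3A (-1.64) and H1FX (-1.10) were then also at least 2-fold lower. H3F3B stood at 1.37 and was the only one at least 2-fold higher, while H2AFX (0.67), H2AFJ (0.82), H2AFZ (0.32) and H2AFV (0.01) were within 2-fold. Of all 11921 genes kept, 972 were at least 2-fold higher and 993 at least 2-fold lower after this subtraction. H3F3A was matched through its short leading transcript of 799 bases and H3F3B through one of 2705 bases, and the nearest genes of these had median log2 folds of 0.83 and -0.61.

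Lists of genes that make and handle histone messages and proteins, or act in S phase, were set beside the 12.4% higher and 21.9% lower among all genes kept. Among 24 kept genes of histone transcription and 3' end processing, 2 were higher and 4 lower by the 2-fold limit, and their median log2 fold was -0.17. The S phase transcription factor E2F1 had 43.2 FPKM in siHNRNPA1 cells and 14.7 FPKM in control cells (1.496), and the U7 particle subunit gene LSM10 91.1 and 36.7 FPKM (1.29). CASP8AP2, whose product FLASH acts in histone mRNA processing, had 0.518 and 4.29 FPKM (-1.80) and CRAMP1 1.16 and 6.65 FPKM (-1.82). NPAT, the coactivator of cluster histone transcription, had 0.928 FPKM in siHNRNPA1 cells and 3.54 FPKM in control cells (-1.24), and SLBP 12.3 and 21.2 FPKM (-0.74). These 2 genes are named for their role and not by the rule on fold. Among 27 genes of histone chaperones and variant exchange, 1 was higher and 3 lower by that limit (median -0.03). The histone importin gene IPO4 had 56.1 and 15.99 FPKM (1.75), EP400, of a remodeller that deposits variants, 6.22 and 24.0 FPKM (-1.79), ATRX, of the H3.3 chaperone complex, 1.92 and 8.30 FPKM (-1.67), and UBN2, of the HIRA complex, 0.716 and 2.64 FPKM (-1.09). Among 25 kept S phase genes, 5 were higher and 1 was lower (median 0.21). TK1, thymidine kinase, had 82.4 and 23.5 FPKM (1.77), GINS2 34.6 and 12.8 FPKM (1.37), MCM5 224 and 90.1 FPKM (1.31), and CCNA2, the gene of cyclin A2, 16.1 and 54.8 FPKM (-1.71). After subtraction of the nearest genes, E2F1 stood at 0.92, LSM10 at 0.34, CASP8AP2 at -0.58 and CRAMP1 at -1.44. NPAT then stood at 0.0095 and SLBP at -0.99. IPO4 stood at 1.37, EP400 at -1.27, ATRX at -0.23 and UBN2 at 0.05 by that measure, and TK1 at 0.89, GINS2 at 1.58, MCM5 at 0.72 and CCNA2 at -0.82. The part of the share of cells in S phase in the cluster histone levels was not tested. CENPA, the centromeric H3 variant that lies outside the name rule, had 4.61 FPKM in siHNRNPA1 cells and 12.8 FPKM in control cells (-1.30).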

How the data were processed

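Per the file headers, every transcript has a count, TPM and FPKM value for each library. The deposited counts are whole numbers assigned to overlapping transcripts, so they were read as estimated counts. TPM and FPKM values were normalised by the authors for transcript length and library size. The sources used here name no aligner, no program for quantification and no annotation release. Processing notes of the submitters name GRCm38 and mm10, yet the identifiers are human, and positions below are those of GRCh38. A further 6 columns match no sample described in the labels used here, so their condition is not known and they were not used. Values were summed per gene identifier (pandas 2.3.3), with a pseudocount of 1 FPKM in folds. Counting intervals are exact at 95% (scipy 1.17.1). Transcript sequences and exons came from GENCODE release 29, and promoters from RefSeq, matched by current symbol. The calculations were tested on simulated data. Named were HNRNPA1, each replacement gene with a mean of at least 1 FPKM, CENPA, and, among cluster genes with that mean, the 6 most abundant of each class and all past 2-fold. Each companion list contributed the 4 genes with the largest absolute fold. Genes named beyond this rule, HIST1H1B, HIST1H1D, HIST1H1E, HIST4H4, genes at or near 0, HIST1H2BF, NPAT, SLBP and the cell markers, were picked for their role or after their values were seen. Members and lists were chosen with earlier results of these data known. Alternatives were pseudocounts of 0.1 and 5, TPM, counts relative to library totals, median ratio scaling, other minimum values, sums over genes with the same protein, and subtraction of the 100 nearest genes.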

Additional observations from a re-analysis of the deposited data

How the results depend on the processing

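No paired analysis was possible because each condition had 1 library, and no library was left out for the same reason. In control cells 65 of the 72 cluster genes had under 50 estimated counts, which limits single genes more than class sums. No class total of the cluster genes changed sign under any alternative. Causes of the differences below were not tested.

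Among log2 folds of class totals, a pseudocount of 5 gave 1.56 (H1), 1.62 (H2A), 1.71 (H2B) and 1.498 (H3) for cluster genes. With counts relative to library totals, cluster H2B stood at 1.63 and cluster H4 at 2.33, and replacement H1, H2A and H3 at -0.69, 0.95 and -0.023. TPM, which moved the median log2 fold of all genes by -0.15, gave -0.70, 0.85 and -0.62 for replacement H1, H2A and H3. Median ratio scaling, which moved it by 0.13, gave 1.98 and 2.05 for cluster H2A and H2B, and -0.39, 1.16 and -0.31 for replacement H1, H2A and H3. After subtraction of the nearest genes, cluster H1, H2A, H2B and H4 stood at 1.57, 1.35, 1.42 and 1.31, and replacement H1, H2A and H3 at -1.37, 0.34 and -1.003. Without the most abundant gene of the class, the folds were 0.74 (cluster H1), 1.97 (cluster H4), -2.01 (replacement H1) and 1.08 (replacement H2A). Replacement H3 then changed sign, to 0.76 without H3F3A. By settings chosen after seeing the data, cluster H4 without HIST2H4A and HIST2H4B stood at 1.497, and all cluster genes at 1.79 from single-exon transcripts alone.

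The 25 of 30 cluster genes at least 2-fold higher became 7 with a pseudocount of 5 and 16 after subtraction of the nearest genes. With a minimum mean of 5 FPKM they were 7, which were all the cluster genes that met it. With genes of the same protein summed they were 16, from fewer units than the 30 genes. These counts follow in part from the filter on the mean, as described above. The median log2 fold of the cluster genes kept, 1.31, became 2.04 with a pseudocount of 0.1 and 0.63 with one of 5. Subtraction left 1 replacement gene higher and 3 lower. Over all genes, 1480 higher and 2609 lower became 841 and 947 with a pseudocount of 5, 972 and 993 after subtraction, and 1920 and 2231 with median ratio scaling. A minimum of 5 FPKM gave 1227 higher and 1450 lower. In the processing list, lower genes numbered 0 with a pseudocount of 5 and 1 with a minimum of 5 FPKM, and subtraction left 1 higher and 1 lower. In the chaperone list, higher genes numbered 2 with counts and 3 with scaling, lower genes 1 with a pseudocount of 5, and subtraction left 3 higher and 1 lower. In the S phase list, lower genes numbered 3 with a pseudocount of 0.1 and 3 with TPM, and subtraction left 3 higher and 0 lower.

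In estimated counts the share of replacement genes was 92.4% in siHNRNPA1 cells and 99.1% in control cells for H1, and 95.6% and 97.5% for H2A. For H3 it was 96.2% in siHNRNPA1 cells. Transcripts ending within 30 bases of the stem-loop gave 10.9% of cluster FPKM in siHNRNPA1 cells.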
